A study of Mus musculus with 15 samples.

Results

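The 9 genes described here are those of the TGF-beta and activin axis that the study's RNA sequencing covers by name: the ligands *Tgfb1*, *Tgfb2* and *Tgfb3*, the receptors *Tgfbr1* and *Tgfbr2*, the activin subunits *Inhba* and *Inhbb*, and the secreted activin antagonists *Fst* (follistatin) and *Fstl3* (follistatin-like 3). The rule lists them by name and sets no threshold on their values, and all 9 of the 24134 gene rows were found and passed the filter on low counts in each of the 2 count tables. The cells were primary articular chondrocytes of ICR mouse pups a few days old, isolated by collagenase from the femoral condyles and tibial plateaus and sequenced at passage 0. One table compared cells transfected with control siRNA (siCtrl) with cells given siRNAs against both tankyrase genes, *Tnks* and *Tnks2* (siTnks/2). The other compared cells kept for 108 h in the solvent DMSO, in 10 µM XAV939 or in 10 µM IWR-1, a pair of small molecules that inhibit tankyrase, an enzyme that attaches poly(ADP-ribose) chains to other proteins. Each of the 5 groups had 3 libraries, and no time is named for the siRNA. The study calls the libraries of a group biological replicates, without saying whether they came from separate litters or isolations.

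TGF-beta is secreted in a latent form held in the matrix and, once released, binds TGFBR2, which recruits and phosphorylates TGFBR1, and this in turn activates SMAD2 and SMAD3. Activins are dimers of inhibin beta subunits that use other receptors but the same SMADs, and follistatin and FSTL3 wrap around the activin dimer and keep it from its receptors. In articular cartilage TGF-beta signalling is known to maintain the tissue and to restrain hypertrophy of its chondrocytes.

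Reads counted on genes per library ranged from 26857070 to 36615194. Values below are CPM (counts scaled to library size, with TMM factors), log2 fold changes (SE, standard error) set each treatment against its own control, and a gene was called at an adjusted p under 0.05 in edgeR's quasi-likelihood test, Benjamini-Hochberg over all genes tested. *Tnks* was lower after knockdown, at 12.7 to 24.0 CPM against 58.4 to 70.1 CPM (log2 fold change −1.81, adjusted p = 0.00569), and *Tnks2* likewise, at 44.9 to 61.2 CPM against 115 to 120.0 CPM (−1.10, adjusted p = 0.00384). The labelled cell type was borne out by its markers. The 8 chondrocyte markers summed to 84400 to 113000 CPM with siCtrl, 120000 to 194000 CPM with siTnks/2, 26700 to 35800 CPM with DMSO, 36800 to 55000 CPM with XAV939 and 88100 to 111000 CPM with IWR-1. The 7 fibroblast and synovial markers summed to 3280 to 5590 CPM with siCtrl and 1600 to 4500 CPM with siTnks/2, and to 9190 to 12100 CPM with DMSO, 4300 to 6390 CPM with XAV939 and 3280 to 5690 CPM with IWR-1, none of them at 0 throughout a group. Leukocyte, endothelial and muscle marker sums stayed at or under 12.2 CPM in every library, but endothelial markers set 1 library apart. Their sum was 8.13 CPM in siTnks/2 replicate 2, where the median of the group was 0.848 CPM, with 89 counts of *Pecam1* against 5 and 7 in replicates 1 and 3, and 64 of *Cdh5* and 35 of *Tie1* against 0 in both. The same library was the lowest of its group for every gene described here except *Tgfb1*, for which it was the highest. Replicate 2 stood out for other markers in both siRNA groups (these were chosen after their values were seen). *Col2a1* was highest there, at 81500 CPM with siCtrl and 142800 CPM with siTnks/2, and *Col1a1* lowest, at 1830 and 805.9 CPM. *Hapln1* was highest in siCtrl replicate 2 (1179 CPM) but lowest in siTnks/2 replicate 2 (1199 CPM). Without siTnks/2 replicate 2 the log2 fold changes of *Fst*, *Fstl3*, *Inhba* and *Tgfb1* after knockdown were −1.52, −0.61, −0.98 and 0.58, all called, where *Inhba* was not called with all libraries. The 6 osteoblast markers summed to 140 to 191 CPM with siCtrl (median 149) and 164 to 262 CPM with siTnks/2 (median 251). In the drug table the sums were 67.2 to 96.2 CPM with DMSO (median 71.4), 88 to 103 CPM with XAV939 (94.3) and 79.7 to 111 CPM with IWR-1 (96.1). Chondrocyte marker sums were thus higher in each treated group than in its control and fibroblast marker sums lower with both inhibitors. The fibroblast sum was mostly *Col1a1* and *Col3a1*, at means of 5948 and 3649 CPM with DMSO. Of the 7 fibroblast and synovial markers, 4 were called lower with XAV939, and 4 lower and 1 higher with IWR-1. These are 57.1% and 71.4%, beside 17.4% and 36.4% of all genes called. Osteoblast medians were higher in each treated group, with overlapping ranges of the sums. Singly, 1 of 6 osteoblast markers tested was called higher after knockdown, 2 of 5 with XAV939 and 3 of 5 with IWR-1, and none lower. These are 16.7%, 40% and 60%, beside 18%, 17.4% and 36.4% of all genes called. The part of these shifts in the results below was not tested. In bulk RNA fewer cells of a type and less RNA per cell cannot be told apart.

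Of the 9 genes, 4 were called after knockdown, 3 with XAV939 and 7 with IWR-1. The knockdown calls fell 2 each way, and all calls with either inhibitor were lower. *Fstl3* was called in all 3 comparisons, lower each time by a fold of 1.72, 3.25 and 4.31 with siTnks/2, XAV939 and IWR-1, and so were *Fst*, *Inhba* and *Tgfbr2* once the replicate number was a block. The knockdown count was 2 (*Fst* and *Tgfbr1*) without siCtrl replicate 1 or 3, where *Tgfb1* and *Fstl3* lost their calls and the calls over all genes fell from 2459 to as few as 608. *Fst* was lowered most by the knockdown, *Inhba* had the lowest log2 fold change with IWR-1 but libraries that differed widely, and *Tgfb1* was called higher after knockdown and lower with IWR-1. These counts stand against a background of many calls. Over all genes tested, 18% were called after knockdown (10.4% higher and 7.61% lower), 17.4% with XAV939 (7.57% higher and 9.85% lower) and 36.4% with IWR-1 (16.2% higher and 20.2% lower). The median log2 fold change of the 9 genes was −0.19, −0.42 and −0.53 in that order, and that of all genes tested was −0.0012, 0.016 and 0.0056. Libraries with the same replicate number deviated together, less clearly in the drug table, where some pairs of different numbers did so too. With the replicate number as a block the counts were 7, 5 and 7, where the background of calls was also higher, at 34.6%, 33.4% and 47.5%.

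**Figure D1:**
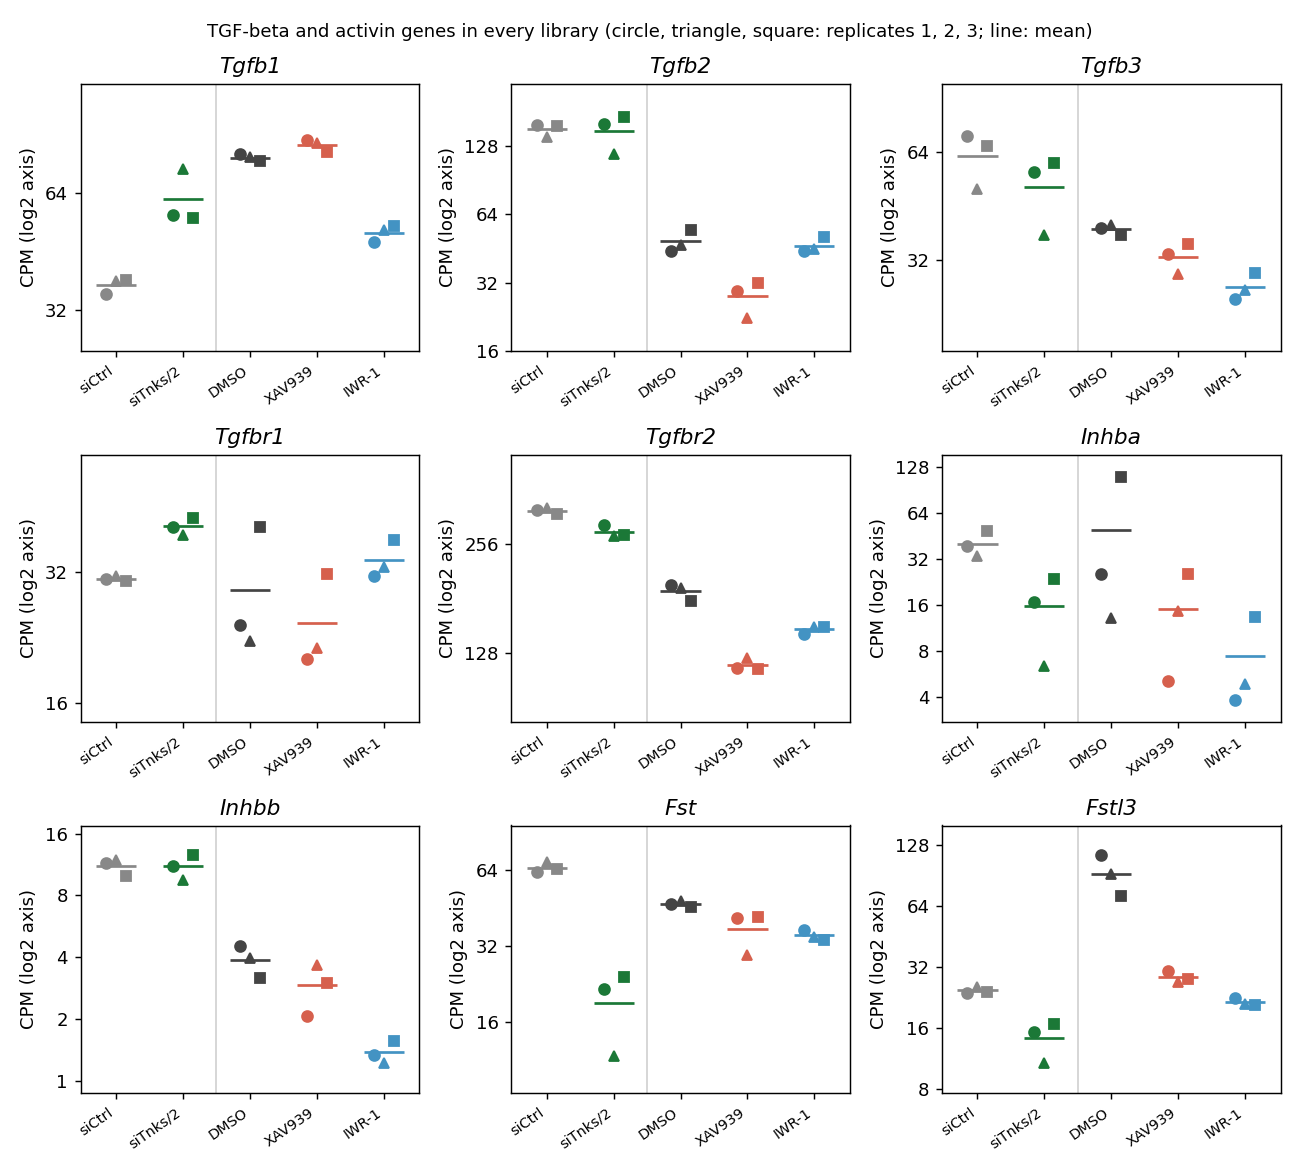
CPM of the 9 genes in each library on a log2 axis, 1 panel per gene, with the 5 groups on the x axis, replicates 1, 2 and 3 as circle, triangle and square, and the group mean as a line; the grey line parts the 2 tables, which were normalized separately. *Fstl3* lies below its control in each treated group, and DMSO replicate 3 stands at 110.2 CPM for *Inhba*.

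The sequence before a start site of 3 of these genes is printed to show the genomic context of the most regular change (*Fstl3*), the most variable gene (*Inhba*) and the gene called in both directions (*Tgfb1*). RefSeq promoter entries were found for 7 of the 9 genes, 8 windows in all, on build GRCm38.p6, and none for *Tgfb3* and *Fst*. Each line gives the 250 bases that end at the base before a start site annotated in RefSeq, 5′ to 3′ on the gene's own strand, which is the plus strand for all 3: chr10:79777024-79777273 for *Fstl3*, chr13:16011601-16011850 for *Inhba* and chr7:25686752-25687001 for *Tgfb1*. Capitals mark matches on either strand to 5 motifs: CTTTGT (SOX core), CTTTGA (TCF/LEF core), CAGAC (SMAD box), TGANTCA (AP-1) and GGAATG (TEAD).
Fstl3: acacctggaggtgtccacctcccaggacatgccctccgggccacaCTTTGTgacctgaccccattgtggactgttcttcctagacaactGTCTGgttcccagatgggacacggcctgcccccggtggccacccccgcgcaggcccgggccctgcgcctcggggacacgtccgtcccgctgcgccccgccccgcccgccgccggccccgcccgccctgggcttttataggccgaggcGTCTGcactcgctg
Inhba: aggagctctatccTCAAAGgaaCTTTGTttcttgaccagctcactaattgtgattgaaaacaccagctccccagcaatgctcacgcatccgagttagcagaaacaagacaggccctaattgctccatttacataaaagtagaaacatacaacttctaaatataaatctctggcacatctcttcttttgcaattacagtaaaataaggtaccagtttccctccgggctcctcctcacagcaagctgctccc
Tgfb1: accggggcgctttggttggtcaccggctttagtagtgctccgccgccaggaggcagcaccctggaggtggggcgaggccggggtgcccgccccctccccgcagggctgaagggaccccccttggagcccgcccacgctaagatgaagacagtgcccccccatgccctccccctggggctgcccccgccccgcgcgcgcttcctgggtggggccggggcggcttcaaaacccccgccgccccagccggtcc
The *Inhba* window ends before the start at 16011851 used by the promoter table, which lies inside the longer span given for the gene below, and the *Tgfb2* window and 1 of the 2 *Tgfbr1* windows likewise lie within the span of their gene. The *Fstl3* window held CTTTGT at position −205 from the start site and CAGAC (read on either strand) at −161 and −14. The *Inhba* window held CTTTGA at −237 and CTTTGT at −228, and the *Tgfb1* window held none of the 5. CTTTGT also occurred in the windows of *Tgfb2* and *Tgfbr1* and CAGAC in those of *Tgfb2*, *Tgfbr1* and *Tgfbr2*, while the *Inhbb* window held none. Short motifs are common: of 32851 such windows, 16.5% held CTTTGT, 13.8% CTTTGA, 42.2% CAGAC, 6.75% TGANTCA and 12.6% GGAATG. The matches describe letters in a window and do not identify bound sites.

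The secreted antagonists are taken before the ligands, since *Fstl3* was called in every comparison. *Fstl3* (gene ID 83554, mm10 chromosome 10, 79777274 to 79782630) encodes a follistatin-like protein that binds activins and myostatin. It measured 24.0, 25.7 and 24.2 CPM in siCtrl replicates 1, 2 and 3 and 15.4, 10.7 and 16.7 CPM in siTnks/2. Among the drug libraries DMSO gave 114.7, 92.2 and 71.9 CPM, XAV939 gave 30.6, 27.1 and 27.9 CPM, and IWR-1 gave 22.6, 21.0 and 20.8 CPM. In each table every treated library lay below every control library, and the DMSO libraries were spread more widely than the treated ones. The log2 fold change came to −0.78 (SE 0.159, adjusted p = 0.0206) for the knockdown, −1.70 (SE 0.153, adjusted p = 8.33e-05) for XAV939 and −2.11 (SE 0.155, adjusted p = 5.48e-06) for IWR-1. Both inhibitor calls held under each alternative tried, with values from −1.87 to −1.52 and from −2.27 to −1.93 when 1 library was left out. The knockdown call did not. Its adjusted p was 0.0683, 0.0684 and 0.0668 without siCtrl replicate 1, 2 or 3 and 0.0607 without siTnks/2 replicate 1, at log2 fold changes from −0.91 to −0.61 over all 6 such fits. Of the 2445 exon bases of *Fstl3*, 1157 are shared with *Prss57*, a coding gene on the opposite strand. The strand setting of the counting is not given in the sources used here, and *Prss57* itself was listed at 0 to 0.0713 CPM.

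*Fst* (gene ID 14313, chromosome 13, 114452262 to 114458989) encodes follistatin, which binds activin almost irreversibly. It measured 63.1, 68.9 and 64.8 CPM with siCtrl and 21.6, 11.8 and 24.2 CPM with siTnks/2. Its level was 47.2, 48.2 and 46.0 CPM in DMSO, 41.3, 29.5 and 42.0 CPM in XAV939 and 37.3, 34.9 and 33.9 CPM in IWR-1. The treated libraries lay below the controls in all 3 comparisons, with a wide gap after knockdown and a narrow one with the drugs. The change was −1.77 (SE 0.239, adjusted p = 0.00741) after knockdown, a fold of 3.41, and this call held under each alternative. With IWR-1 it was −0.41 (SE 0.131, adjusted p = 0.029), and the adjusted p rose to 0.0754, 0.067, 0.0928 and 0.0742 without DMSO replicate 1, DMSO replicate 2, IWR-1 replicate 2 or IWR-1 replicate 3. With XAV939 it was −0.32 (SE 0.131, adjusted p = 0.113), and with the replicate block −0.34 (adjusted p = 0.0433). Without XAV939 replicate 2, the lowest library of its group, the XAV939 value was −0.18 (adjusted p = 0.196).

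*Inhba* (gene ID 16323, chromosome 13, 16004256 to 16031609) encodes the subunit of activin A. Its levels were 38.9, 33.6 and 48.6 CPM with siCtrl and 16.8, 6.42 and 23.9 CPM with siTnks/2. DMSO libraries held 25.6, 13.2 and 110.2 CPM, XAV939 libraries 5.12, 14.6 and 25.6 CPM, and IWR-1 libraries 3.87, 4.91 and 13.4 CPM. Replicate 3 was the highest library in each of the 5 groups. The knockdown groups did not overlap, whereas the DMSO libraries overlapped both the XAV939 libraries and the highest IWR-1 library. On the log2 scale the change came to −1.36 (SE 0.414, adjusted p = 0.0622) for the knockdown, −1.71 (SE 0.778, adjusted p = 0.154) for XAV939 and −2.73 (SE 0.815, adjusted p = 0.0223) for IWR-1. DESeq2 gave the knockdown an adjusted p of 0.0482. With the replicate block all 3 were called lower, at −1.52 (adjusted p = 0.011), −1.47 (adjusted p = 0.00772) and −2.51 (adjusted p = 0.000129). Within replicate numbers the knockdown differences in log2 CPM were −1.21, −2.38 and −1.02, those with XAV939 −2.31, 0.144 and −2.10, and those with IWR-1 −2.71, −1.42 and −3.03. *Inhba* was therefore lower in all 3 pairs with knockdown and with IWR-1, and in 2 of 3 pairs with XAV939. DMSO replicate 3 carried much of the size: without it the values were −0.37 (adjusted p = 0.738) with XAV939 and −1.39 (adjusted p = 0.111) with IWR-1. The IWR-1 call was also lost without IWR-1 replicate 1 or 2 (adjusted p = 0.0816 and 0.0831). Without siTnks/2 replicate 2 the knockdown value was −0.98 (adjusted p = 0.0143).

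*Inhbb* (gene ID 16324, chromosome 1, 119415463 to 119422248) encodes the subunit of activin B. It was measured at 11.5, 11.9 and 9.92 CPM with siCtrl and at 11.2, 9.52 and 12.5 CPM with siTnks/2. With DMSO it stood at 4.51, 3.96 and 3.17 CPM, with XAV939 at 2.08, 3.68 and 2.99 CPM, and with IWR-1 at 1.34, 1.22 and 1.57 CPM. The knockdown and control libraries overlapped, as did XAV939 and DMSO, and all IWR-1 libraries lay below both other drug groups. The IWR-1 change was −1.46 (SE 0.24, adjusted p = 0.000649), a fold of 2.74, and held under each alternative. The change was −0.0041 after knockdown (95% interval −0.318 to 0.309, adjusted p = 0.985) and −0.42 with XAV939 (−0.918 to 0.0853, adjusted p = 0.226).

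The 3 TGF-beta ligands, which are encoded by separate genes and share the same receptors, took 3 different courses. *Tgfb1* (gene ID 21803, chromosome 7, 25687002 to 25705077) measured 35.1, 38.1 and 38.1 CPM with siCtrl and 56.0, 73.6 and 55.0 CPM with siTnks/2. In DMSO it stood at 80.3, 79.1 and 77.1 CPM, in XAV939 at 87.2, 85.7 and 81.5 CPM and in IWR-1 at 47.7, 51.3 and 52.6 CPM. The knockdown libraries all lay above their controls, the XAV939 libraries lay just above DMSO, and the IWR-1 libraries lay well below it. The log2 fold changes were 0.73 (SE 0.12, adjusted p = 0.0118) for the knockdown, 0.11 (SE 0.0843, adjusted p = 0.418) for XAV939 and −0.64 (SE 0.0849, adjusted p = 0.000189) for IWR-1. Without siCtrl replicate 1 or 3 the knockdown adjusted p was 0.0578 and 0.0508, at 0.70 and 0.75 on the log2 scale.

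*Tgfb2* (gene ID 21808, chromosome 1, 186622787 to 186709697) measured 157.4, 139.8 and 156.6 CPM with siCtrl and 159, 117.6 and 171.6 CPM with siTnks/2. Values were 44.1, 47.0 and 54.8 CPM in DMSO, 29.5, 22.4 and 31.9 CPM in XAV939 and 44.0, 45.1 and 50.6 CPM in IWR-1. XAV939 was the one treatment whose libraries all lay below their control. Its change was −0.80 (SE 0.142, adjusted p = 0.00354), against −0.02 after knockdown (95% interval −0.346 to 0.311, adjusted p = 0.941) and −0.06 with IWR-1 (−0.372 to 0.247, adjusted p = 0.763).

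*Tgfb3* (gene ID 21809, chromosome 12, 86056743 to 86079041) measured 70.6, 50.4 and 66.1 CPM with siCtrl and 56.3, 37.6 and 59.4 CPM with siTnks/2. For the drugs the values were 39.1, 40.0 and 37.6 CPM in DMSO, 33.2, 29.2 and 35.3 CPM in XAV939 and 24.9, 26.4 and 29.5 CPM in IWR-1. Both inhibitor groups lay below DMSO, and the knockdown and control libraries overlapped. Replicate 2 was the lowest library of both siRNA groups. The call was made with IWR-1 (−0.53, SE 0.107, adjusted p = 0.00273), and the other values were −0.25 (SE 0.107, adjusted p = 0.124) for XAV939 and −0.29 (SE 0.195, adjusted p = 0.332) for the knockdown. With the replicate block the knockdown value was −0.30 (adjusted p = 0.0193). Annotated non-coding transcripts on the opposite strand share 257 or fewer of its 3383 exon bases.

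*Tgfbr2* (gene ID 21813, chromosome 9, 116087695 to 116175363), the ligand-binding type II receptor, measured 316.1, 321.3 and 308.3 CPM with siCtrl and 288.1, 269.6 and 271.3 CPM with siTnks/2. It came to 197, 194 and 177.9 CPM in DMSO, 116.5, 124.1 and 116.1 CPM in XAV939 and 145, 151.6 and 150.8 CPM in IWR-1. Treated libraries lay below control libraries in each comparison, and the XAV939 libraries also lay below all IWR-1 libraries. XAV939 gave a change of −0.67 (SE 0.0875, adjusted p = 0.00067) and IWR-1 one of −0.35 (SE 0.0871, adjusted p = 0.00968). After knockdown it was −0.19 (SE 0.0583, adjusted p = 0.0632), and DESeq2's Wald test and the replicate block called it lower (adjusted p = 0.0154 and 0.0331).

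*Tgfbr1* (gene ID 21812, chromosome 4, 47353222 to 47414926), the type I receptor kinase, measured 30.8, 31.3 and 30.5 CPM with siCtrl and 40.7, 39.0 and 42.6 CPM with siTnks/2. The DMSO libraries held 24.2, 22.2 and 40.6 CPM, the XAV939 libraries 20.2, 21.4 and 31.6 CPM and the IWR-1 libraries 31.2, 32.9 and 37.9 CPM. The siRNA groups were tight and did not overlap, while DMSO replicate 3 lay above all other libraries of the drug table. The knockdown change was 0.40 (SE 0.0592, adjusted p = 0.00868) and held under each alternative. The inhibitor values were −0.25 (SE 0.235, adjusted p = 0.493) for XAV939 and 0.23 (SE 0.234, adjusted p = 0.482) for IWR-1. Without DMSO replicate 3 they were 0.059 (adjusted p = 0.864) and 0.54 (adjusted p = 0.0419).

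**Figure D2:**
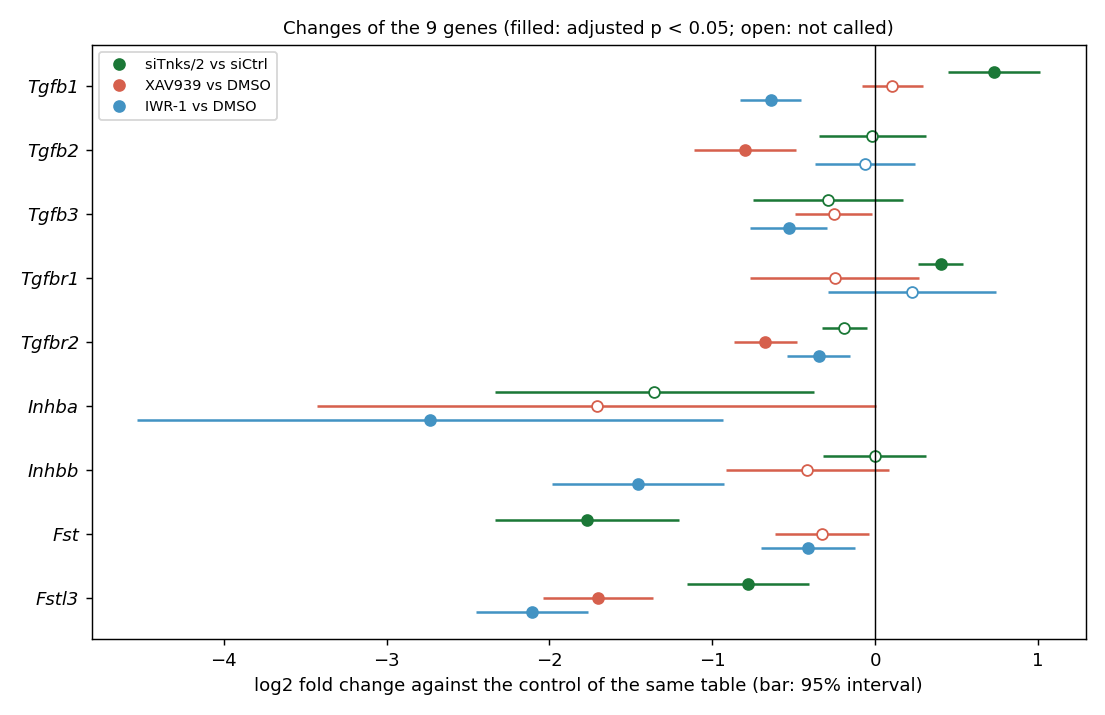
Log2 fold change of each gene (x axis) in the 3 comparisons, with unadjusted 95% intervals as bars and filled points for adjusted p under 0.05. *Fstl3* has filled points below 0 in all 3 comparisons, *Tgfb1* has filled points on both sides of 0, and *Inhba* has the widest intervals.

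Levels of different genes were compared per length, as CPM per kb of exon, within a group. With siCtrl the order was *Tgfbr2* (38.5 ± 0.799, SD, n = 3), *Tgfb2* (26.1 ± 1.72), *Tgfb3* (18.4 ± 3.14), *Fst* (14.3 ± 0.64), *Fstl3* (10.1 ± 0.376), *Tgfb1* (7.36 ± 0.346), *Inhba* (6.32 ± 1.19), *Tgfbr1* (4.72 ± 0.0601) and *Inhbb* (2.61 ± 0.25). The libraries of neighbours overlapped for *Tgfb3* and *Fst* and for *Tgfb1* and *Inhba*. With siTnks/2, *Fst* stood at 4.18 ± 1.43, below *Tgfb1* (12.2 ± 2.08) and *Tgfbr1* (6.24 ± 0.275), and the libraries of neighbours overlapped at each step from *Tgfbr1* through *Fstl3*, *Fst* and *Inhbb* to *Inhba* (2.46 ± 1.38).

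In the drug table, normalized apart from the siRNA table, *Fstl3* headed the order with DMSO at 38 ± 8.75 CPM per kb, ahead of *Tgfbr2* (23.2 ± 1.26), *Tgfb1* (15.6 ± 0.314), *Tgfb3* (11.5 ± 0.368) and *Fst* (10.3 ± 0.248). With XAV939 (11.7 ± 0.754) it stood below *Tgfb1* and *Tgfbr2*, and with IWR-1 (8.79 ± 0.409) again below both. With IWR-1 its libraries overlapped those of *Tgfb2* (8.04 ± 0.616), which overlapped *Tgfb3* (7.96 ± 0.682), which overlapped *Fst* (7.70 ± 0.385). *Inhba* per kb was 7.77 ± 8.26 with DMSO, 2.37 ± 1.61 with XAV939 and 1.16 ± 0.823 with IWR-1, and *Inhbb* was last in each of these 3 groups. The spread of *Inhba* with DMSO was larger than its mean.

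**Figure D3:**
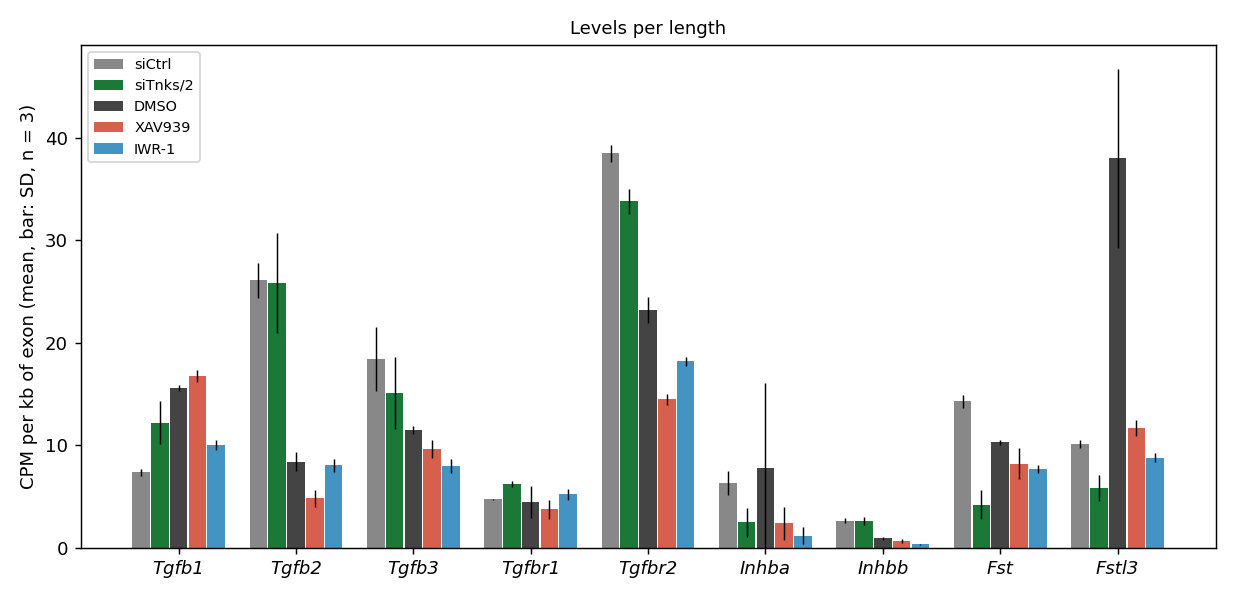
Mean CPM per kb of exon (y axis) of each gene in the 5 groups, with the SD of 3 libraries as error bars. *Fstl3* falls from 38 with DMSO to 11.7 with XAV939 and 8.79 with IWR-1, and *Fst* from 14.3 with siCtrl to 4.18 with siTnks/2.

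Whether the inhibitors acted alike on these genes was asked at the matched dose of 10 µM and time of 108 h, for the 1 pair of compounds. Both inhibitors were set against the same DMSO libraries, so the 2 drug groups were contrasted directly. Of the 9 genes, 4 differed, with 17.6% of all genes called in this contrast. In log2 units, with IWR-1 relative to XAV939, *Tgfb1* was lower by −0.75 (SE 0.085, adjusted p = 0.000343) and *Inhbb* by −1.04 (SE 0.243, adjusted p = 0.0121), and *Tgfb2* was higher by 0.73 (SE 0.142, adjusted p = 0.00535) and *Tgfbr2* by 0.33 (SE 0.0872, adjusted p = 0.0259). The difference in *Inhbb* lost its call without IWR-1 replicate 1 or 2 (adjusted p = 0.0503 and 0.058). That in *Tgfbr2* lost it without any of the IWR-1 libraries (adjusted p = 0.0636, 0.11 and 0.0801 for replicates 1, 2 and 3) or without XAV939 replicate 1 or 3 (0.0887 and 0.0714). The differences in *Tgfb1* and *Tgfb2* held under each alternative.

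For the other 5 genes no difference between the inhibitors was called, and the intervals leave room for one. The intervals are per gene and not adjusted for the number of genes tested, so those of *Fstl3* and *Tgfb3* lie wholly on the negative side without a call. The 95% interval of IWR-1 relative to XAV939 ran from −0.38 to 0.20 for *Fst*, from −0.74 to −0.074 for *Fstl3* (adjusted p = 0.0894), from −2.78 to 0.73 for *Inhba*, from −0.51 to −0.038 for *Tgfb3* and from −0.039 to 0.997 for *Tgfbr1*. With the replicate block 7 of the 9 differed, with 30.7% of all genes called, and *Fstl3* (−0.41, adjusted p = 0.0188), *Inhba* (−1.04, adjusted p = 0.049) and *Tgfbr1* (0.51, adjusted p = 0.00738) joined the 4. In a fit of only these 2 groups the *Fstl3* difference was also called (adjusted p = 0.0222), and it was without DMSO replicate 1 or 3 (adjusted p = 0.0479 and 0.0225).

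Differences between an inhibitor and the knockdown were tested as an interaction over all 15 libraries. The siRNA and drug libraries come in separate count tables, each with its own control, so the kind of treatment and the table cannot be told apart. For XAV939, 5 of the 9 genes differed from the knockdown, with 13.5% of all genes called. *Fst* was reduced less by XAV939 than by the knockdown, with a difference of 1.43 (SE 0.268, adjusted p = 0.00374), and *Fstl3* more, with a difference of −0.93 (SE 0.224, adjusted p = 0.0148). *Tgfb1* (−0.64, SE 0.144, adjusted p = 0.0106), *Tgfb2* (−0.79, SE 0.207, adjusted p = 0.0213) and *Tgfbr2* (−0.50, SE 0.103, adjusted p = 0.00665) had lower values in the XAV939 effect. The *Tgfb2* difference lost its call without siCtrl replicate 2 or siTnks/2 replicate 1 (adjusted p = 0.0532 and 0.0509). With the replicate block *Tgfbr1* differed as well (−0.65, adjusted p = 0.00795).

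For IWR-1, 4 of the 9 differed from the knockdown, with 24.4% of all genes called. *Fst* again had the smaller reduction, with a difference of 1.35 (SE 0.268, adjusted p = 0.00216), and *Fstl3* the larger, with −1.34 (SE 0.225, adjusted p = 0.000673). *Tgfb1*, called in opposite directions, differed by −1.38 (SE 0.145, adjusted p = 1.79e-05) and *Inhbb* by −1.46 (SE 0.283, adjusted p = 0.00148). The differences of *Inhba* had intervals from −2.52 to 1.77 for XAV939 and from −3.57 to 0.79 for IWR-1, so these libraries did not resolve them.

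**Figure D4:**
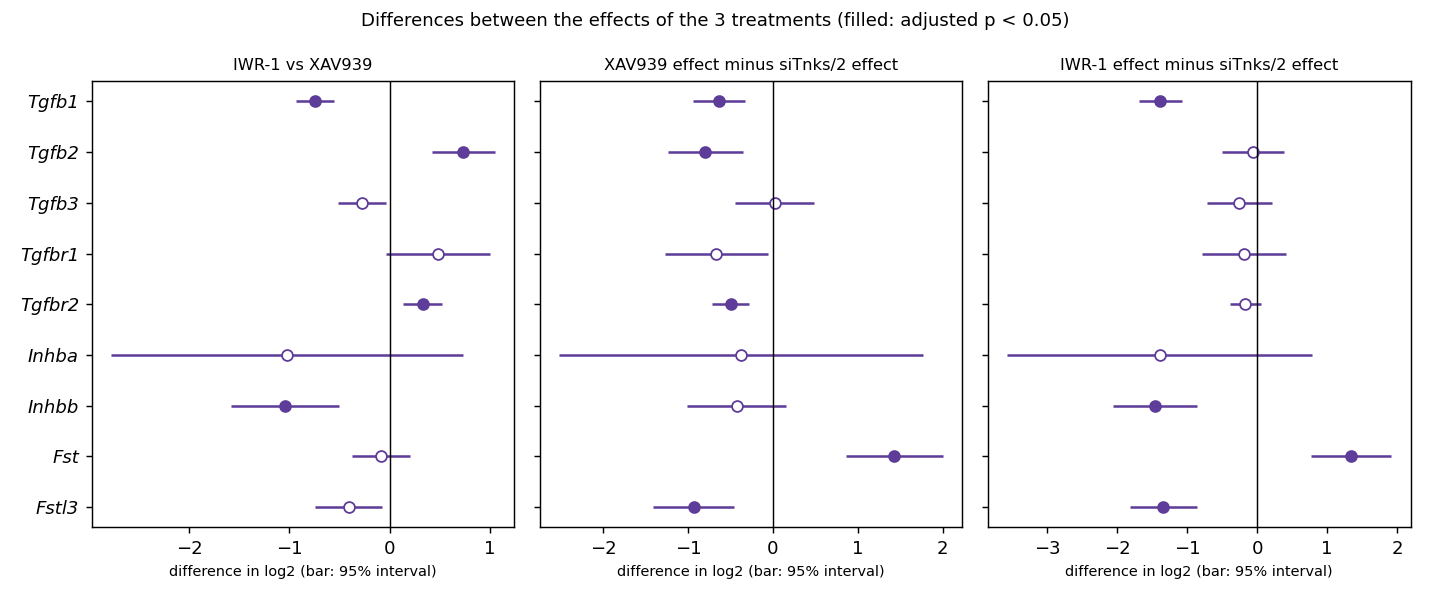
Differences in log2 between IWR-1 and XAV939 (left), between the XAV939 and knockdown effects (middle) and between the IWR-1 and knockdown effects (right) for the 9 genes, with unadjusted 95% intervals as bars and filled points for adjusted p under 0.05. *Fst* is filled above 0 and *Fstl3* filled below 0 in the middle and right panels, and *Tgfb1* is filled below 0 in all 3.

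The rest of the pathway was followed in 71 further genes in 6 lists by role. After knockdown 18 of the 60 tested were called (30%, 8 higher and 10 lower), with XAV939 23 of 60 (38.3%, 7 higher and 16 lower) and with IWR-1 34 of 60 (56.7%, 9 higher and 25 lower), beside the 18%, 17.4% and 36.4% of all genes. The knockdown count was 4, 6 and 3 without siCtrl replicate 1, 2 or 3 and 4 without siTnks/2 replicate 1. Over the 6 fits that left out 1 library, calls over all genes ran from 608 to 2868, against 2459 with every library. With the replicate block the knockdown count was 28, beside 34.6% of all genes called. The median log2 fold change of the pathway genes was −0.017, −0.22 and −0.24 in the 3 comparisons. Of the 61 tested in either table, 45 were called at least once, and the matching share of all genes was not computed. *Ltbp1* and *Itgav* were called lower and *Bambi* and *Postn* higher in all 3 comparisons, while *Htra1* and *Acta2* were called in opposite directions (*Itgav* was chosen after its values were seen).

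Among 13 genes of TGF-beta storage and activation, 12 were tested in the siRNA table (3 called higher and 3 lower) and 11 in the drug table (1 higher and 4 lower with XAV939, 2 and 4 with IWR-1). The shares called were 50%, 45.5% and 54.5%, beside 18%, 17.4% and 36.4% of all genes. *Ltbp1*, which tethers latent TGF-beta to the matrix, measured 229.3, 238.5 and 282.4 CPM with siCtrl and 92.2, 62.7 and 130.6 CPM with siTnks/2. DMSO libraries had 133.7, 97.8 and 148 CPM, XAV939 libraries 64.1, 51.4 and 78.1 CPM, and IWR-1 libraries 50.1, 33.8 and 66.9 CPM. It was lower by −1.39 (SE 0.248, adjusted p = 0.0142), −0.97 (SE 0.244, adjusted p = 0.0204) and −1.33 (SE 0.246, adjusted p = 0.00158). *Lrrc32*, a surface anchor of latent TGF-beta, was higher after knockdown (1.14, adjusted p = 0.00224) and with IWR-1 (0.73, adjusted p = 0.0115), and *Ltbp3* was higher (0.76, adjusted p = 0.00586) after knockdown. The activator *Thbs1* was lower after knockdown (−0.96, adjusted p = 0.0284) and with XAV939 (−0.60, adjusted p = 0.0458). *Ltbp4* was higher with XAV939 (0.77, adjusted p = 0.00929) and IWR-1 (1.01, adjusted p = 0.000698), and *Fbn1*, the fibrillin to which latency proteins bind, was lower with both (−0.72, adjusted p = 0.00801, and −0.78, adjusted p = 0.00203). *Itgav*, a subunit of the integrins that release TGF-beta, was lower by −0.46, −0.85 and −0.83 (adjusted p = 0.0484, 0.0329 and 0.0196).

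Most of the 10 other ligands of the branch were too low to test. After knockdown *Inha* and *Gdf11* were tested and neither was called by edgeR (0.23, adjusted p = 0.592, and 0.43, adjusted p = 0.386). All 3 ligands tested with the drugs were called with both inhibitors, beside 17.4% and 36.4% of all genes. *Inha*, the inhibin alpha subunit, measured 22.1, 15.1 and 14.2 CPM in DMSO, 8.89, 6.46 and 6.70 CPM in XAV939 and 5.67, 4.98 and 4.35 CPM in IWR-1. Its change was −1.21 (SE 0.2, adjusted p = 0.0024) and −1.76 (SE 0.204, adjusted p = 7.82e-05). *Gdf11*, a ligand of the activin receptors, was also lower (−0.83, adjusted p = 0.0267, and −1.52, adjusted p = 0.000436). *Inhbe* was higher (1.49, adjusted p = 0.0164, and 2.01, adjusted p = 0.00106) from very few reads, 2, 8 and 6 counts with DMSO, 22, 19 and 13 with XAV939 and 25, 32 and 26 with IWR-1.

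Of 11 other receptors and co-receptors, 9 were tested, with 1 called higher and 1 lower after knockdown and with XAV939, and 1 higher and 4 lower with IWR-1. This makes 22.2%, 22.2% and 55.6% of those tested, beside 18%, 17.4% and 36.4% of all genes. The 1 higher was *Bambi* each time, a pseudoreceptor without kinase that dampens TGF-beta signalling. *Bambi* measured 24.2, 29.6 and 21.6 CPM with siCtrl and 39.5, 52.6 and 35.9 CPM with siTnks/2. In DMSO it was at 3.66, 5.70 and 4.34 CPM, in XAV939 at 9.32, 15.05 and 11.1 CPM and in IWR-1 at 19.1, 19.8 and 17.6 CPM. The treated libraries were above their controls in every comparison, by 0.76 (SE 0.172, adjusted p = 0.0271), 1.36 (SE 0.204, adjusted p = 0.00142) and 2.03 (SE 0.204, adjusted p = 3.1e-05). *Tgfbr3*, the co-receptor betaglycan, was lower after knockdown (−0.91, adjusted p = 0.00358) and with IWR-1 (−1.14, adjusted p = 0.000189), *Acvr1* was lower with IWR-1 (−0.70, adjusted p = 0.000205) and *Cd109* with XAV939 (−0.57, adjusted p = 0.0447).

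Of the 7 extracellular binders, 1 was called higher after knockdown, 1 higher with XAV939 and 2 lower with IWR-1. These shares of 14.3%, 14.3% and 28.6% lay below the 18%, 17.4% and 36.4% of all genes. The protease *Htra1* was higher after knockdown (0.36, adjusted p = 0.0186) and lower with IWR-1 (−0.96, adjusted p = 0.00074), *Dcn*, the proteoglycan decorin, was lower with IWR-1 (−1.29, adjusted p = 0.000698), and *Wfikkn1*, which binds myostatin and GDF11, was higher with XAV939 (0.88, adjusted p = 0.0249). Of the 12 transducers and their regulators, 2 were called each way after knockdown, 2 lower with XAV939, and 1 higher and 3 lower with IWR-1. That is 33.3%, 16.7% and 33.3%, above the share of all genes after knockdown and below it with either inhibitor. *Smad3*, a receptor-activated SMAD, was lower with XAV939 (−0.64, adjusted p = 0.00189) and IWR-1 (−0.63, adjusted p = 0.0006), as was *Smurf2*, a ubiquitin ligase that targets the receptors (−0.74, adjusted p = 0.00147, and −0.62, adjusted p = 0.00133). *Smad2*, which is also receptor-activated, was called in no comparison (it was chosen after its values were seen). After knockdown *Trim33* (0.36, adjusted p = 0.0193) and *Smad4* (0.27, adjusted p = 0.0304) were higher and *Fkbp1a* (−0.28, adjusted p = 0.022) and *Ski* (−0.27, adjusted p = 0.0472) lower, all by small amounts, and with IWR-1 *Zfyve9*, which presents SMADs to the receptor, was higher (0.50, adjusted p = 0.00611).

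Of 18 genes known to be induced by TGF-beta or activin in mesenchymal cells, 1 was called higher and 4 lower after knockdown, 3 and 7 with XAV939, and 4 and 10 with IWR-1, with medians of −0.26, −0.61 and −0.75. Called shares were 27.8%, 55.6% and 77.8%, beside 18%, 17.4% and 36.4% of all genes. *Lox*, a collagen cross-linking enzyme, was lower with XAV939 (−1.34, adjusted p = 0.00146) and IWR-1 (−2.22, adjusted p = 2.03e-05), as was the transcription factor *Bhlhe40* (−0.97, adjusted p = 0.000597, and −0.99, adjusted p = 0.000129). After knockdown the smooth muscle actin *Acta2* (−1.41, adjusted p = 0.0268) and the cell cycle inhibitor *Cdkn2b* (−1.15, adjusted p = 0.0307) were lower, and *Cdkn2b* was also lower with IWR-1 (−0.93, adjusted p = 0.0018).

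Other genes of the same list rose. The matrix protein *Postn* was higher in all 3 comparisons (2.05, adjusted p = 0.0352, then 1.21, adjusted p = 0.00248, and 1.32, adjusted p = 0.000462), *Tgfbi* with XAV939 (0.65, adjusted p = 0.0042) and IWR-1 (1.70, adjusted p = 4.5e-06) and the transcription factor *Snai2* with XAV939 (0.74, adjusted p = 0.00248) and IWR-1 (1.18, adjusted p = 3.83e-05). *Acta2* had the opposite sign with IWR-1 (1.73, adjusted p = 0.00147). *Col1a1*, *Col3a1* and *Prg4* of this list are also 3 of the 7 fibroblast and synovial markers, whose sums were lower with both inhibitors, and that part in the list's counts was not tested. Among the pathway genes named by rule for the knockdown, the calls of *Lrrc32*, *Ltbp3* and *Tgfbr3* held when each library was left out in turn, and those of the rest were lost in at least 1 such fit. With XAV939 the calls of *Cd109*, *Gdf11*, *Inhbe*, *Ltbp1* and *Wfikkn1* were lost in at least 1 fit, and with IWR-1 that of *Lrrc32*.

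**Figure D5:**
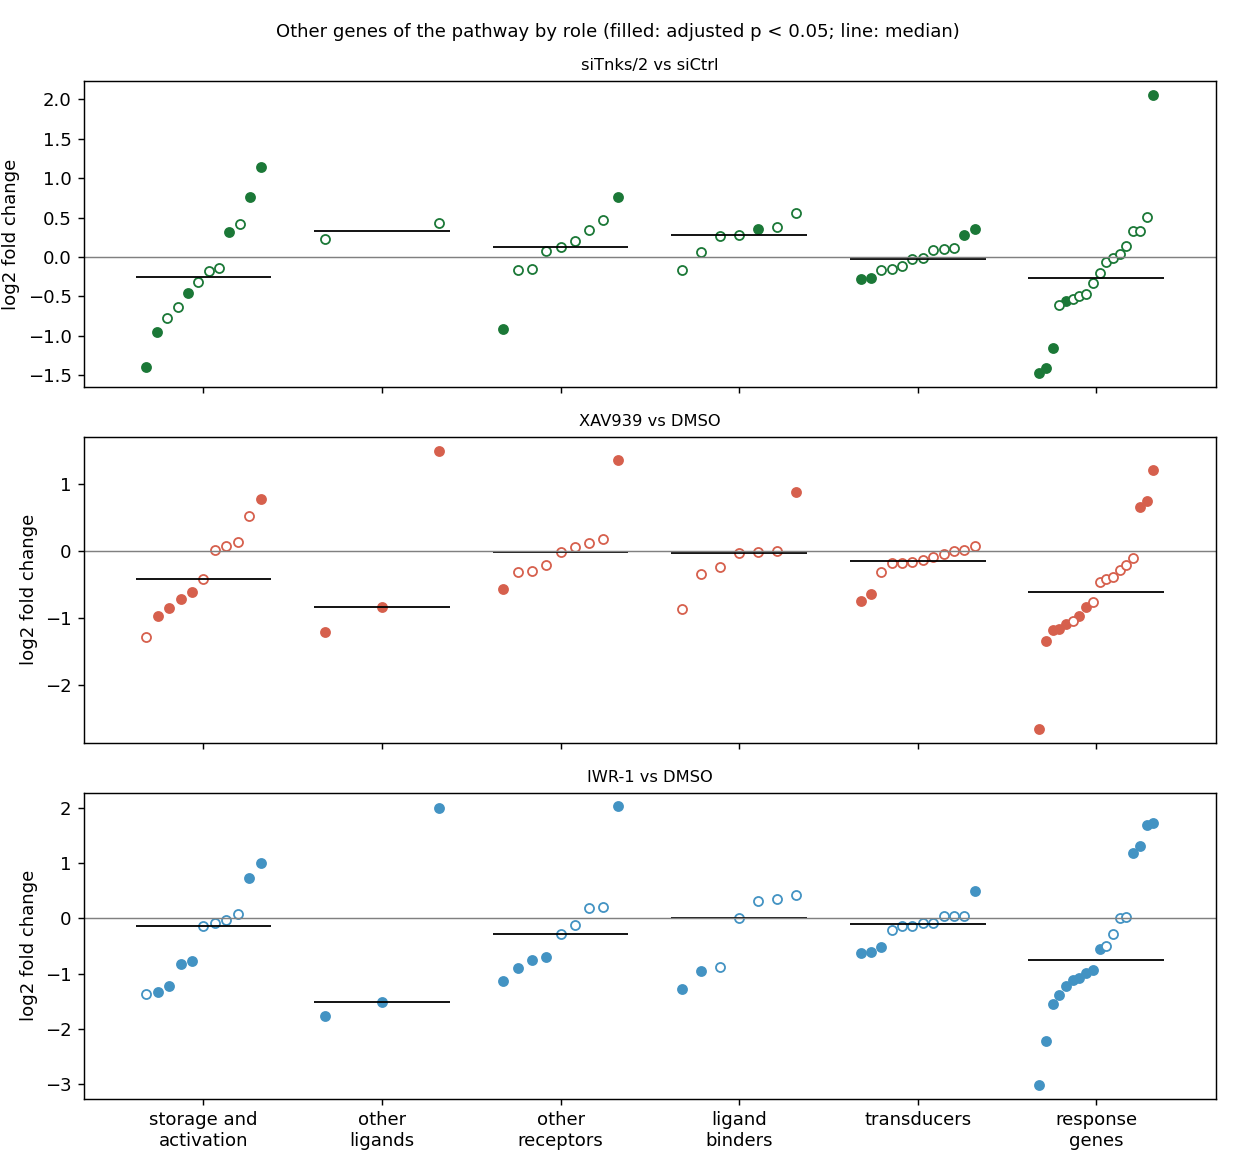
Log2 fold changes (y axis) of the tested genes of the 6 pathway lists in the 3 comparisons, 1 point per gene in ascending order, with a line at the list's median and filled points for adjusted p under 0.05. Most filled points of the response genes lie below 0 with both inhibitors, and the highest filled receptor point in each panel is *Bambi*.

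The genes whose pattern was most like each of the 9 were found by Pearson's r of log2 CPM over the 15 libraries, centred on the controls of each table, among 13341 genes, as a description. *Fstl3* ran closest to *Rap2a* (r = 0.981) and *Arhgap28* (r = 0.981), which had log2 fold changes of −0.48, −1.02 and −1.28 and of −0.66, −1.17 and −1.48 in the 3 comparisons. *Tgfb1* ran closest to *Chst2* (r = 0.978) and to *Mmp9* (r = 0.976), which had 2.70, 0.86 and −2.16. *Inhba* ran closest to *Cgnl1* (r = 0.968), *Tgfbr2* to *Rubcn* (r = 0.976), *Tgfbr1* to *Slc35a3* (r = 0.969), *Fst* to *Mtmr14* (r = 0.965), *Tgfb3* to *Prrg3* (r = 0.965), *Tgfb2* to *Rad23b* (r = 0.954) and *Inhbb* to *Adssl1* (r = 0.953). Among the 9 themselves r was highest between *Fstl3* and *Tgfbr2* (0.824) and between *Fstl3* and *Inhbb* (0.806), and lowest between *Fst* and *Tgfb1* (−0.682). *Fst* and *Fstl3*, the 2 antagonists, had an r of 0.224. These libraries share treatments and control groups, so the values carry no p.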

How the data were processed

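RNA of mouse articular chondrocytes was prepared with TruSeq Stranded mRNA kits. Per the submitters' processing notes the authors used Trimmomatic 0.32, TopHat2 2.0.13 and HTSeq 0.6.1p1 with mm10, and the annotation and strand setting of the counting are not given in the sources used here. The deposited values are raw counts per Entrez gene ID in a siRNA table of 6 libraries and a drug table of 9. Symbols matched 24058 of 24134 rows, through RefSeq and GENCODE vM21. Depth was between 26857070 and 36615194 counts, so 1 count is 0.0273 to 0.0372 CPM.

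Counts were tested in R 4.3.3 with edgeR 4.0.16 (filterByExpr, TMM, quasi-likelihood F test, prior count 2, Benjamini-Hochberg over 13672 genes in the siRNA table, 13873 in the drug table and 14271 in the joint model of 5 group means). The SE is the log2 fold change before shrinkage over the square root of F. DESeq2 1.42.0, RLE and upper-quartile scaling, no filter, a filter of 10 counts in every library, fits of only the 2 groups, the replicate block and leaving out each library were alternatives. Steps were tested on simulated data. Libraries of the same replicate number, taken from the labels, had correlated deviations from their group means (r from 0.424 to 0.519 in 3 siRNA pairs and from 0.143 to 0.553 in 9 drug pairs), all above the limit of 0.1, so blocked values are given where they change a call. Pairs of different numbers ran from −0.409 to 0.0972 in 6 siRNA pairs and from −0.489 to 0.318 in 18 drug pairs. The pairing is thus less clear in the drug table. DMSO replicate 2 had an r of 0.318 with XAV939 replicate 1 and 0.143 with XAV939 replicate 2.

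The members and gene lists were chosen with earlier results of these data known. Pathway genes were named by rule, the 2 each way per list and comparison with the smallest adjusted p among called genes with every treated library above, or every one below, the controls, and 2 like genes per member by r, of which the nearest is given for most. 1 pathway gene covered by this rule is left out of the text. Promoters were taken from RefSeq.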

Additional observations from a re-analysis of the deposited data

Results flagged for a closer look

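Each value here is a difference between the effects of 2 treatments, in log2, that passed the test of the difference itself in edgeR. IWR-1 differed from XAV939 by −0.746 for *Tgfb1*, 0.734 for *Tgfb2*, 0.327 for *Tgfbr2* and −1.04 for *Inhbb*. The XAV939 effect minus the knockdown effect was −0.639 for *Tgfb1*, −0.794 for *Tgfb2*, −0.497 for *Tgfbr2*, 1.43 for *Fst* and −0.932 for *Fstl3*. The IWR-1 effect minus the knockdown effect was −1.38 for *Tgfb1*, −1.46 for *Inhbb*, 1.35 for *Fst* and −1.34 for *Fstl3*. Inhibitor and knockdown libraries belong to different count tables, which cannot be told apart from the kind of treatment. No formal screen for outlying samples was run in the groups of 3 libraries, but each library was left out in turn.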

How the results depend on the processing

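Of 918 values of the 9 genes under alternatives, 856 kept their direction and their side of the threshold, 22 lost the call, 19 gained one and 21 turned in sign, all 21 from values that were not called. With the replicate block, which pairs libraries of the same number, 7 of the 9 genes were called after knockdown, 5 with XAV939 and 7 between the inhibitors, and 28 other pathway genes after knockdown, where all genes called rose to 4727, 4630 and 6593 in the 3 comparisons. Among the 9 genes and the named pathway genes it changed no call beyond those given beside the results. When 1 library was left out, the 9 genes gave 2 to 5 calls after knockdown, 3 to 3 with XAV939, 5 to 7 with IWR-1, 2 to 5 between the inhibitors, 4 to 6 for XAV939 against knockdown and 4 to 4 for IWR-1 against knockdown. The other pathway genes gave 3 to 19, 16 to 25 and 29 to 35 calls, and all genes 608 to 2868, 1322 to 2484 and 3771 to 5669.

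Values that turned in sign were all small or uncertain. The *Inhba* difference between XAV939 and knockdown was 0.0385 with the replicate block and ran from −0.98 to 0.991 without 1 library. *Inhbb* after knockdown was 4.38e-05 with at least 10 counts in every library and ran from −0.102 to 0.0934 without 1 library. Leaving out 1 library gave ranges of −0.129 to 0.128 for *Tgfb2* after knockdown, −0.142 to 0.0247 for *Tgfb2* with IWR-1, −0.209 to 0.0557 for its difference between IWR-1 and knockdown, −0.153 to 0.154 for *Tgfb3* between XAV939 and knockdown, −0.498 to 0.0594 for *Tgfbr1* with XAV939 and −0.368 to 0.145 for *Tgfbr1* between IWR-1 and knockdown. Of 320 values of named pathway genes under alternatives that kept all libraries, 4 lost the call and none turned in sign: *Cd109* (2 groups −0.587, adjusted p = 0.0764, and upper quartile −0.519, adjusted p = 0.0531), *Wfikkn1* (2 groups 0.87, adjusted p = 0.0687) and *Ski* (no filter −0.273, adjusted p = 0.055). The 3 libraries per group and the spread within DMSO limit what could be resolved for *Inhba* and *Tgfbr1*.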
